A study of Mus musculus with 14 samples.

Results

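TDP-43 occupancy of chromatin was compared between mouse C2C12 cells that had received an siRNA against Myolinc (siMyolinc) and control C2C12 cells. The members are all 73396 nuclear peaks in the 4 TDP-43 peak lists of a series whose 10 lists hold 517058. They comprise 24960 peaks in the siMyolinc library and 29703, 10571 and 8162 peaks in control replicates 1 to 3. Lists were taken whole, apart from peaks on the mitochondrial genome, and again at an equal length of the 8162 best-scoring peaks each. C2C12 is an established mouse myoblast line that withdraws from the cell cycle and fuses into myotubes in low serum. Both groups were taken on day 2 of differentiation and precipitated with the same TDP-43 antibody. The siMyolinc cells had been transfected with the siRNA at 10 nM before differentiation began. Whether control cells received a non-targeting siRNA or no transfection is left unsaid in the labels. Knockdown was transient, with 1 siMyolinc library and no replicate of it. Nothing in the labels says that the 3 control libraries came from separate cultures, so a p-value here reflects the spread of these samples alone, and that spread may be technical.

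TDP-43, encoded by Tardbp, is a mainly nuclear protein with paired RNA recognition motifs that prefer UG-rich RNA and TG-rich single-stranded DNA. It represses cryptic exons, sits in long introns and 3' untranslated regions of pre-mRNAs, and was first isolated as a protein that binds viral promoter DNA. It forms aggregates in motor neurons in amyotrophic lateral sclerosis and in muscle fibres in inclusion body myositis. Myolinc is a long noncoding RNA transcribed beside Filip1, and the series asked whether it is needed for TDP-43 to bind promoters of muscle genes. ChIP-seq of chromatin gives no level of Myolinc or of muscle transcripts, so neither the knockdown nor the cells' differentiation state was checked here.

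The libraries differed in depth, which touches every comparison made here. Peak scores are the authors' own values and were used to rank and describe peaks inside a list. They are whole multiples of 1 step per list, read here as the worth of 1 sequence tag. If scores are scaled to 10000000 tags, the siMyolinc library held 3252857 tags and the control libraries 1394375, 1087182 and 962447. The siMyolinc library was thus 2.33-, 2.99- and 3.38-fold deeper. It placed 5.93% of its tags in peaks, against 19.5%, 7.28% and 6.60% in control replicates 1 to 3. Peaks rested on few tags, with a median of 7 in siMyolinc and of 8, 6 and 6 in the controls. The strongest siMyolinc peak held 50 tags, whereas the strongest control peaks held 2828, 3671 and 4760. Depth and knockdown cannot be told apart.

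A few promoters, chosen after values were seen, serve as examples. Promoters held 2.53% of siMyolinc peaks and a mean of 4.84% of control peaks, so they do not stand for most sites. The sequences below are the 250 bases before a transcription start on the gene's strand, from RefSeq (GRCm38.p6, the build called mm10), with the bases under a TDP-43 peak in capitals. Sgcd encodes delta-sarcoglycan, part of the dystrophin-linked membrane complex of muscle. Its promoter held no peak in siMyolinc and a peak in all 3 controls (chr11:47379326-47379575, minus strand, capitals for the replicate 1 peak).
Sgcd: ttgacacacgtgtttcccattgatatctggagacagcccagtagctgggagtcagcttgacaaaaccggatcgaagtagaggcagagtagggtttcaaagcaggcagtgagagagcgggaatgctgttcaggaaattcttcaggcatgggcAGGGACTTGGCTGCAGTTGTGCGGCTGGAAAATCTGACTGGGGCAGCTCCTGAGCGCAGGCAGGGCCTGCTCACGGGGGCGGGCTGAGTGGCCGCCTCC
Myog encodes myogenin, a transcription factor that drives myoblast differentiation, and its promoter held a peak in control replicate 1 alone (chr1:134289754-134290003, plus strand).
Myog: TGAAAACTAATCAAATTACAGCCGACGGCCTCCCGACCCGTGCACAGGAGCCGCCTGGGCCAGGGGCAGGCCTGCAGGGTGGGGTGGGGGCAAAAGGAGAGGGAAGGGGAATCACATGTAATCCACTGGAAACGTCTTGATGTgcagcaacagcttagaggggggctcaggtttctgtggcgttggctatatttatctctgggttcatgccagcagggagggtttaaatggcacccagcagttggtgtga
Ckm encodes muscle creatine kinase, and its promoter held a peak in control replicate 3 alone (chr7:19410844-19411093, plus strand).
Ckm: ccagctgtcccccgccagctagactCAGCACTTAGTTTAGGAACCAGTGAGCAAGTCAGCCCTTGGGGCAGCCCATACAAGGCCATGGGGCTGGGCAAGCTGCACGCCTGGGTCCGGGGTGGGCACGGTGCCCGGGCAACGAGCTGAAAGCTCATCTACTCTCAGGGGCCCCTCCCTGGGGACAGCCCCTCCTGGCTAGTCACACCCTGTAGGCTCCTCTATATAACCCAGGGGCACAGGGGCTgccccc
Myt1l encodes a zinc finger transcription factor of neurons, and its promoter held a peak in all 4 lists (chr12:29534655-29534904, plus strand, capitals for the control replicate 1 peak).
Myt1l: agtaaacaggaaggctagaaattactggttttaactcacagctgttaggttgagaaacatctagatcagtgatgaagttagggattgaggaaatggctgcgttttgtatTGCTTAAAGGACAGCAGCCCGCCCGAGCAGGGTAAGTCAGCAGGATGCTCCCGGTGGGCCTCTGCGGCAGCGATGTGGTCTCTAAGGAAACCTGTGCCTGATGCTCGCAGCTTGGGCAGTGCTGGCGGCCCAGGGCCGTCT
Pank4 encodes a protein of the pantothenate kinase family, and its promoter held a peak in the siMyolinc list alone (chr4:154963873-154964122, plus strand).
Pank4: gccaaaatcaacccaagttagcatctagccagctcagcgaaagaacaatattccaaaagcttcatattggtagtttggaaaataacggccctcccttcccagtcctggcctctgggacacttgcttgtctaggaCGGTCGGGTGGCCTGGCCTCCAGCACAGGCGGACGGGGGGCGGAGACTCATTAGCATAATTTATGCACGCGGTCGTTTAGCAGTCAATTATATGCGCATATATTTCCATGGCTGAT

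Exons were the annotation class whose share differed most in percentage points. They held 6.93% of siMyolinc peaks (1729 of 24960, 95% Wilson interval 6.62 to 7.25%), against 18.8%, 24.1% and 25.6% of peaks in control replicates 1 to 3. The siMyolinc share lay 15.9 percentage points below the control mean of 22.8 ± 3.59% (SD, n = 3). Promoters held 2.53% of siMyolinc peaks and 4.84 ± 0.436% of control peaks (SD, n = 3). The 5' UTR class held 0.341% of siMyolinc peaks and 1.15 ± 0.155% of control peaks (SD, n = 3), and the 3' UTR class 1.43% of siMyolinc peaks and 2.13 ± 0.0804% of control peaks (SD, n = 3). Introns held 40.2% of siMyolinc peaks, against 29.3 ± 2.71% of control peaks (SD, n = 3). Intergenic DNA held 46.9% of siMyolinc peaks, against 37.3 ± 1.83% of control peaks (SD, n = 3). In each of the 8 classes the siMyolinc value lay outside the range of the 3 controls. The two-sided exact permutation test of 1 library against 3 gave p = 0.25 for each, which is the smallest p this design allows, so no share can pass 0.05.

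**Figure D1:**
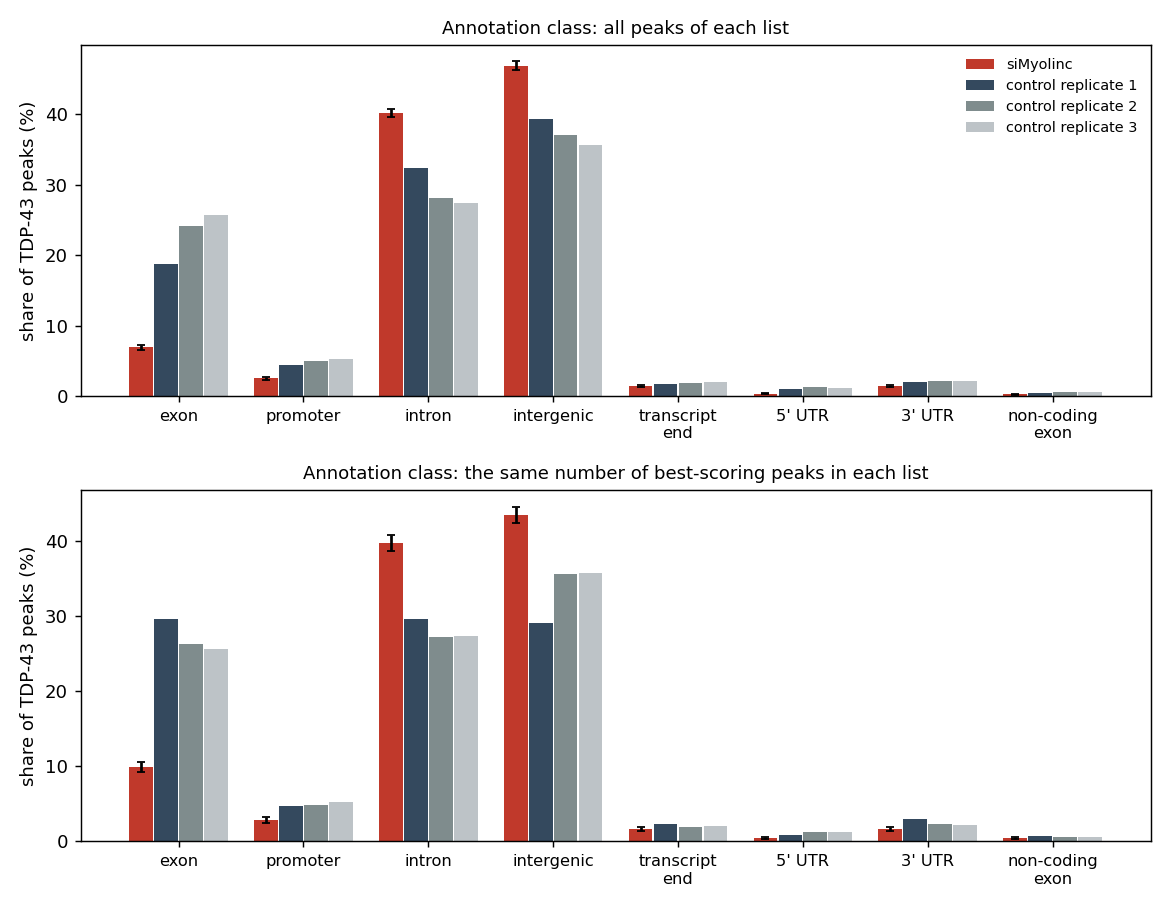
Share of TDP-43 peaks (%) in each annotation class for the siMyolinc library (red, with its 95% Wilson interval) and control replicates 1 to 3 (greys), for whole lists (top) and for the 8162 best-scoring peaks of each list (bottom). The siMyolinc library has the lowest exon share and the highest intron and intergenic shares in both panels.

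At equal list length the siMyolinc exon share was again below each control. Exons then held 9.91% of siMyolinc peaks, against 29.6%, 26.2% and 25.6% of peaks in control replicates 1 to 3. Among the best 1000 peaks of each list they held 18.0% in siMyolinc, against 34.8%, 31.3% and 32.2% in the controls. Promoters held 2.81% of siMyolinc peaks at equal length, against 4.97 ± 0.228% of control peaks (SD, n = 3). The exact permutation test gave p = 0.25 for the exon and promoter shares at both lengths. Exon peaks had a median of 8 tags in siMyolinc, where the whole list had 7. In control replicates 1 to 3 they had a median of 10, 7 and 6 tags, where the whole lists had 8, 6 and 6.

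Where an exon peak lay within its transcript differed less. The first exon held 10.4% of siMyolinc exon peaks and 11.8 ± 0.980% of control exon peaks (SD, n = 3), with p = 0.5 in the exact permutation test. The last exon held 22.3% in siMyolinc and 26.1 ± 1.29% in the controls (SD, n = 3), with p = 0.25 in the same exact test. The first intron held 28.6% of siMyolinc intron peaks and 29.3 ± 0.537% of control intron peaks (SD, n = 3), with p = 0.5 in that exact test. Measured from the named gene's start, 4.76% of siMyolinc peaks lay within 1 kb, against 9.93%, 11.8% and 11.7% of peaks in control replicates 1 to 3. Beyond 100 kb the shares were 24.2% in siMyolinc, against 20.96%, 19.04% and 18.6% in the controls. The median distance was 32260.5 bp in siMyolinc, against 23819, 20384 and 19533 bp in control replicates 1 to 3.

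Repeats divided the lists further. Simple repeats, short units copied in tandem, held 1.32% of siMyolinc peaks (330 peaks), against 8.67%, 10.1% and 8.58% of peaks in control replicates 1 to 3. Part of these were dinucleotide repeats of TG or, on the other strand, CA, the DNA counterpart of the RNA that TDP-43 prefers. The TG or CA repeats held 0.621% of siMyolinc peaks (155 peaks), against 4.72%, 5.43% and 4.55% of the control peaks. TC or GA repeats were lower in the siMyolinc list too, at 0.1002% of siMyolinc peaks, against 1.28%, 1.43% and 1.41% in the controls. CpG islands held 0.821% of siMyolinc peaks, against 3.23%, 5.07% and 5.07% in control replicates 1 to 3. Interspersed elements went the other way. SINEs, short retroposons, held 10.5% of siMyolinc peaks and 3.34 ± 0.539% of control peaks (SD, n = 3). LTR elements, remnants of endogenous retroviruses, held 10.8% of siMyolinc peaks and 4.95 ± 0.844% of control peaks (SD, n = 3). The exact permutation test gave p = 0.25 for each of these 6 shares, its smallest value.

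**Figure D2:**
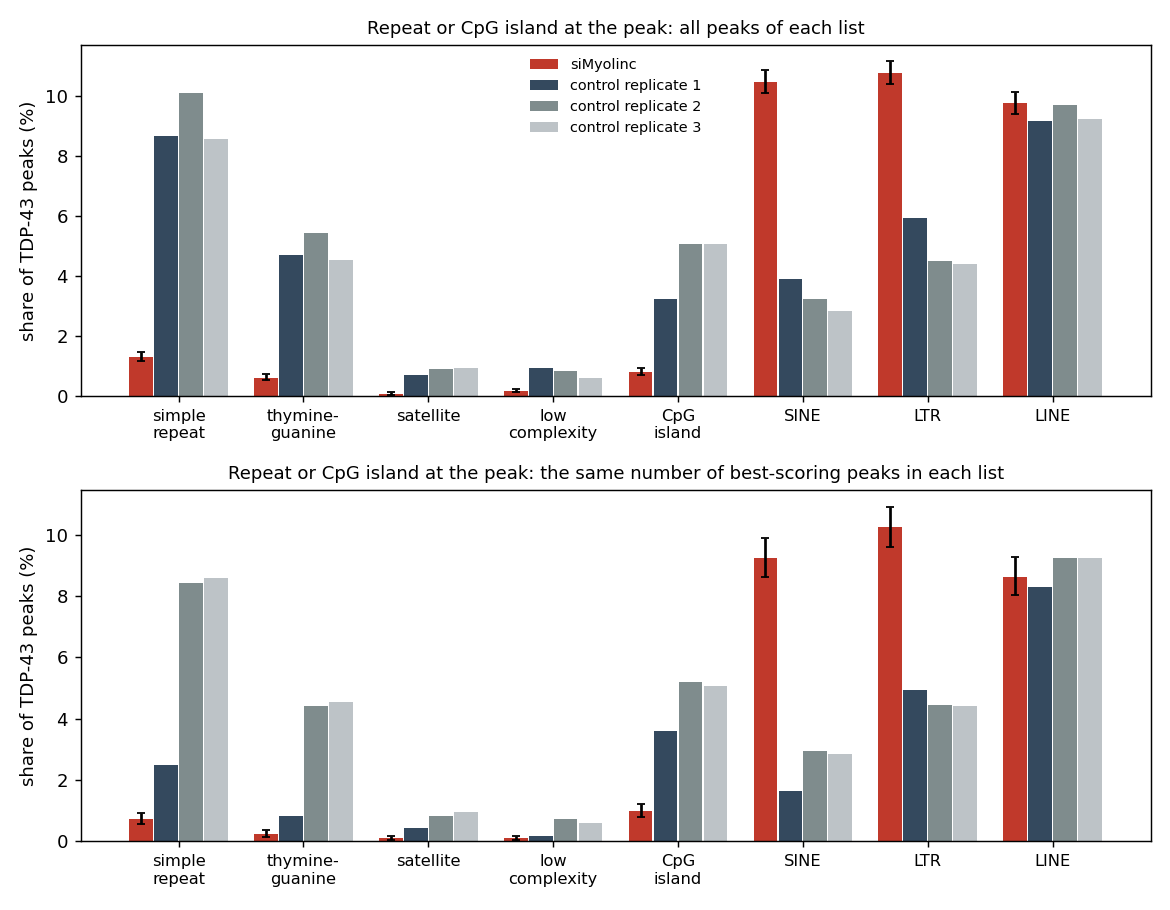
Share of TDP-43 peaks (%) at each repeat family or CpG island for the siMyolinc library (red, with its 95% Wilson interval) and control replicates 1 to 3 (greys), for whole lists (top) and for the 8162 best-scoring peaks (bottom). The bars labelled thymine-guanine are the simple repeats of TG or CA. Simple repeats are lowest and SINE and LTR elements highest in siMyolinc in both panels, while control replicate 1 falls away from replicates 2 and 3 for simple repeats at equal length.

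List length mattered for the simple repeats. At equal length they held 0.723% of siMyolinc peaks, against 2.50%, 8.42% and 8.58% in control replicates 1 to 3, so replicate 1 stood nearer to siMyolinc than to the other controls. TG or CA repeats then held 0.233% of siMyolinc peaks, against 0.833%, 4.41% and 4.55% in the controls. Simple repeat peaks had a median of 7 tags in siMyolinc, the same as its whole list. In control replicates 1 to 3 they had a median of 6, 5 and 5 tags, below the list medians of 8, 6 and 6. LINE elements, the long retroposons, gave small differences of opposite sign on whole lists and at equal length. They held 9.76% of siMyolinc peaks against 9.37 ± 0.286% of control peaks (SD, n = 3) on whole lists, and 8.63% of siMyolinc peaks against 8.92 ± 0.538% of control peaks (SD, n = 3) at equal length, where siMyolinc fell inside the control range and the exact permutation test gave p = 1.

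Satellite DNA, the tandem arrays of centromeric heterochromatin, supplied the strongest control peaks. It held 0.0801% of siMyolinc peaks (20 peaks), against 0.7003%, 0.899% and 0.956% of peaks in control replicates 1 to 3 (208, 95 and 78 peaks). The strongest siMyolinc satellite peak held 11 tags. The leading satellite site on chromosome 2 (98662561 to 98662809, mm10) had no siMyolinc peak and held 2485, 3671 and 4760 tags in control replicates 1 to 3. Another nearby (98667007 to 98667255) held 2828, 2287 and 2075 tags. A satellite annotated inside intron 4 of Chl1, a neural adhesion gene on chromosome 6 (103649018 to 103649266), held 373, 707 and 766 tags. These 2 sites had no siMyolinc peak either. No satellite peak was among the best 1000 siMyolinc peaks, which allows a share of up to 0.383% (95% Wilson limit), against 2.20%, 3.70% and 3.40% of the best 1000 control peaks. Satellite reads come from many copies and their positions are uncertain.

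The RNA polymerase II lists moved with these shares. For polymerase phosphorylated at serine 2, the elongating form, exons held 3.76% of siMyolinc peaks and 21.4% of control peaks, with 1 library per condition and no test. Simple repeats held 1.35% of siMyolinc and 9.30% of control polymerase peaks. SINEs held 13.4% of siMyolinc and 6.24% of control polymerase peaks, and LTR elements 11.1% of siMyolinc and 4.83% of control ones. The polymerase lists held 116064 siMyolinc and 10715 control peaks. At equal length exons held 6.87% of siMyolinc and 23.9% of control polymerase peaks, and simple repeats 0.429% and 7.63%. SINEs then held 9.985% and 5.415%, and LTR elements 10.8% and 4.62%. The exon shares of the MyoD and Myogenin lists did not move this way, with 1 library per condition and no test. Exons held 3.68% of siMyolinc and 1.85% of control MyoD peaks, and 6.25% of siMyolinc and 1.84% of control Myogenin peaks. SINEs held 9.68% of siMyolinc and 10.8% of control MyoD peaks, and 7.87% and 9.16% of Myogenin peaks. LTR elements held 10.1% and 11.1% of MyoD peaks, and 8.94% and 9.7% of Myogenin peaks. Low exon shares with high SINE and LTR shares were thus also found in control lists of these antibodies, without knockdown. The MyoD lists held 109522 siMyolinc and 71878 control peaks, and the Myogenin lists 20441 siMyolinc and 115000 control peaks. At equal length exons held 3.90% of siMyolinc and 2.07% of control MyoD peaks, and 5.95% and 2.14% of Myogenin peaks. Simple repeats held 1.67% of MyoD peaks in siMyolinc and 1.202% in control on whole lists. At equal list length they were lower in siMyolinc, as for TDP-43, at 0.319% in siMyolinc and 0.588% in control. The part of depth or of library make-up in the TDP-43 shares was not tested.

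The overlap of single sites was counted next, at 1 bp or more. The siMyolinc list held 8.48 to 10.3% of the exon peaks of the 3 controls, whereas another control list held 18.3 to 48.9% of them. For intergenic peaks the siMyolinc list held 4.68 to 5.80%, against 8.65 to 34.6% for another control list. For promoter peaks the values were 6.48 to 7.98% in siMyolinc and 14.0 to 42.96% in another control. Simple repeat peaks were found at 1.75 to 2.86% in siMyolinc and 5.40 to 22.0% in another control. Satellite peaks were found at 0 to 1.44% in siMyolinc and at 13.9 to 48.7% in another control. In each of the 10 groups plotted, the peaks of each control replicate were found less often in siMyolinc than in either of the other control lists, although the control libraries were shallower.

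**Figure D3:**
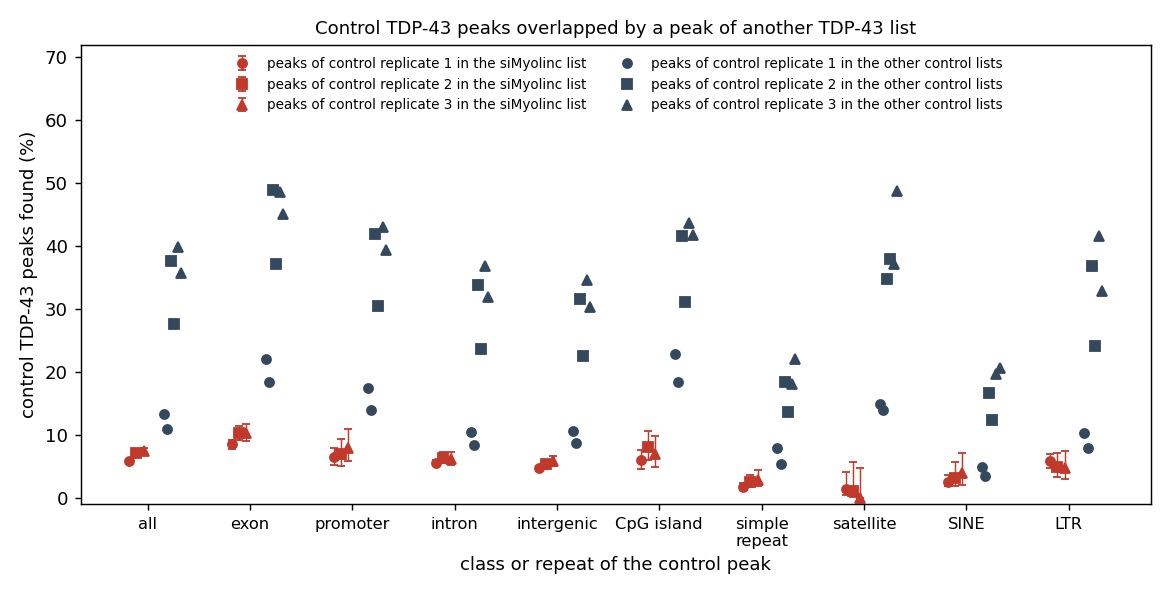
Share (%) of the peaks of each control replicate, by class or repeat, that a peak of the siMyolinc list overlaps (red, with 95% Wilson intervals) or that a peak of each other control list overlaps (dark), marker shape giving the replicate whose peaks were counted. Red points lie under the dark points of the same replicate in all 10 groups. Among the annotation classes plotted (exon, promoter, intron and intergenic), both are highest for exons.

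Seen from the siMyolinc side, exon, 5' UTR and CpG island peaks were the most often shared. Of 24960 siMyolinc peaks, 2277 (9.12%, Wilson interval 8.77 to 9.49%) met a peak of at least 1 control list. The share was 36.0% for exon peaks (622 of 1729, interval 33.8 to 38.3%), 44.7% for 5' UTR peaks (38 of 85) and 43.4% for CpG island peaks (89 of 205). It was 17.4% for promoter peaks, 6.88% for intron peaks, 5.93% for intergenic peaks, 2.07% for SINE peaks and 0 of 20 for satellite peaks, which allows up to 16.1%. The 2277 peaks met by a control lay 27.3% in exons, and the other 22683 lay 4.88% in exons, 41.2% in introns and 48.5% between genes. The 22683 had a median of 7 tags, which scales to 3.001, 2.34 and 2.07 tags at the depth of control replicates 1 to 3. Of them, 14.0%, 3.56% and 7.27% would reach the lowest tag number listed in those libraries, and the rest fall below it.

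Sites shared by the controls gave a separate view. All 3 control lists met at 1565 places, and 160 of these had a siMyolinc peak (10.2%, Wilson interval 8.82 to 11.8%). By class the share was 9.77% for exon sites (51 of 522), 10.8% for intron sites (39 of 361), 10.1% for intergenic sites (49 of 484) and 9.09% for promoter sites (8 of 88). These 4 shares lay inside one another's intervals, so no difference between classes was detectable among the shared sites. Of 28 satellite sites 0 had a siMyolinc peak, which allows up to 12.1%, and of 83 simple repeat sites 5 did (6.02%). Control tags at each site were then scaled to the siMyolinc depth. At the 1405 sites without a siMyolinc peak, the mean over the 3 scaled controls ran from 12.7 to 10956.2 tags with a median of 23.6. At the 160 sites with a peak, siMyolinc held a median of 9 tags against a median of 24.2 scaled control tags, and it reached the lowest of the 3 scaled values at 2 of them. An unlisted site may still hold tags, since a list gives no tags outside its peaks. Shared sites were also chosen for being listed in every control, which favours high control values.

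**Figure D4:**
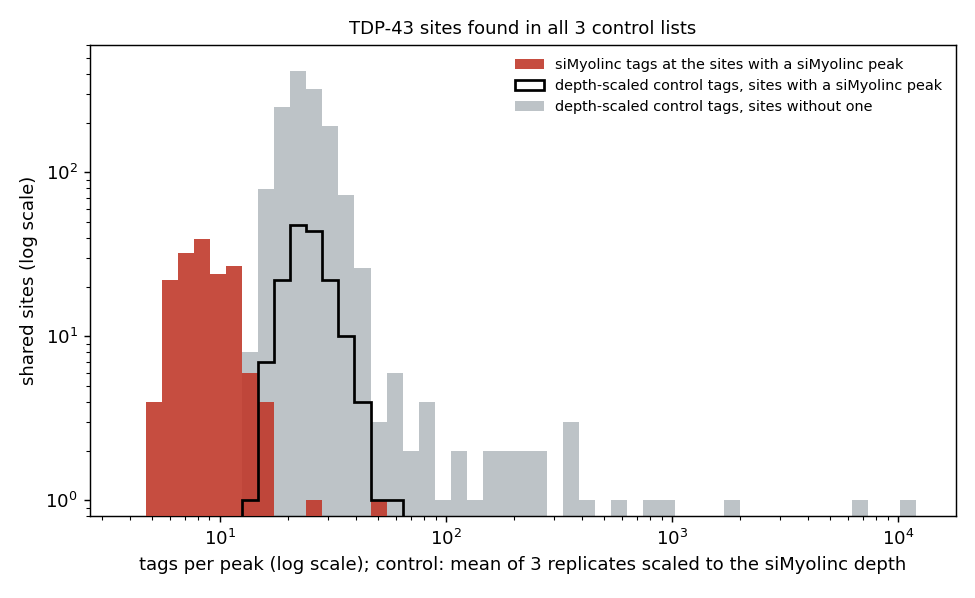
Tags per peak (log axis) at the 1565 sites listed in all 3 controls, as numbers of sites (log axis). Red shows siMyolinc tags at the 160 sites with a siMyolinc peak (median 9), the black outline the mean of the 3 depth-scaled controls at those sites (median 24.2), and grey the same for the 1405 sites without a siMyolinc peak (median 23.6).

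Among shared sites without a siMyolinc peak, the best-ranked exons were led by Sfi1, which encodes a centrosomal protein. Its exon 26 of 33 on chromosome 11 (3135532 to 3135780) held 176, 99 and 109 tags in control replicates 1 to 3, with the pseudogene Pisd-ps1 named as nearest gene. This region has near-identical copies in the genome, so its tags are uncertain. An exon of Celsr1, a cadherin of planar cell polarity on chromosome 15 (86031374 to 86031622), held 20, 12 and 12 tags. An exon of Adamts20, a secreted metalloprotease on chromosome 15 (94349043 to 94349291), held 19, 15 and 9 tags. Outside exons, a transcript end of Cc2d1a on chromosome 8 (84132049 to 84132297) held 31, 17 and 11 tags, and a 5' UTR of Alad, a heme synthesis enzyme, held 14, 10 and 10 tags. None of these sites was listed in the siMyolinc library, whose weakest listed peak holds 5 tags, and each was listed in every control.

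At most named sites listed in all 4 libraries, siMyolinc tags did not exceed the highest control. These sites were picked for high score ranks in the 3 controls, which favours high control tags, so their tags describe and test nothing. The L1td1 promoter on chromosome 4 (98726688 to 98726936) held 7 tags in siMyolinc, against 10, 10 and 11 in control replicates 1 to 3. L1td1 encodes an RNA-binding protein derived from a LINE element. The Myt1l promoter printed above held 9 tags in siMyolinc, against 14, 6 and 12 in the controls. An exon of Slc25a51, the mitochondrial NAD carrier, held 10 tags in siMyolinc, against 21, 14 and 10 in the controls. A CpG island in an intron of Cdh8, a cadherin of the nervous system, held 11 tags in siMyolinc, against 27, 11 and 8 in the controls. Above every control was an intergenic site on chromosome 2 (181929192 to 181929440), nearest to Gm14496, with 50 tags in siMyolinc, against 15, 16 and 12 in the controls. It was the strongest nuclear siMyolinc peak, and no function is given for this predicted gene.

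The peaks listed in siMyolinc alone were modest. Intergenic DNA near Lemd2, which encodes an inner nuclear membrane protein, held the highest at 27 tags (chromosome 17, 27217912 to 27218128). An exon of Tmem140 held 23 tags, and an exon of Zfp648, a zinc finger gene, 21 tags. Exon 45 of 47 of Cacna1b, a neuronal calcium channel, held 21 tags, with Pax8 named as nearest gene and a distance of -132420 bp from its start. Among promoters, Ddn, which encodes the neuronal and podocyte protein dendrin, held 16 tags and Pank4 15 tags. Each of these lay in no control list, and 21 tags in siMyolinc correspond to 9.001, 7.02 and 6.21 tags at the depth of control replicates 1 to 3.

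Promoter sequence was compared through the 300-base RefSeq windows, from 250 bases before to 50 after a start, that a peak met. There were 502 such windows in siMyolinc and 1261, 527 and 431 in control replicates 1 to 3, of 32851 in the table. Mean GC content was 57.5% in siMyolinc and 60.1 ± 0.269% in the controls (SD, n = 3), against 53.8% over all promoters. The exact permutation test gave p = 0.25. A run of 6 TG units, searched on both strands, was in 0.598% of siMyolinc windows and 0.937 ± 0.387% of control windows (SD, n = 3), against 1.01% of all promoters (p = 0.75, exact permutation test). The E-box letters CANNTG, the motif of MyoD and myogenin, which reads the same on both strands in its fixed letters, were in 75.7% of siMyolinc and 72.8 ± 1.67% of control windows (SD, n = 3), against 72.3% of all promoters (p = 0.5, exact permutation test). Both motif shares stood near those of all promoters.

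Fewer genes had an exon peak in siMyolinc than in each control. Of 21900 protein-coding genes, 1453 (6.63%) had one in siMyolinc, against 3740, 1943 and 1640 in control replicates 1 to 3 (p = 0.5, exact permutation test). At equal list length the numbers were 693 in siMyolinc and 1813, 1653 and 1640 in the controls (p = 0.25, exact permutation test). On whole lists the difference of siMyolinc from the control mean was -988 genes, and -338.5 genes without control replicate 1, the longest list. An exon peak was listed in all 3 controls for 771 genes (3.52%) and 250 of these (32.4%) had one in siMyolinc, which need not lie at the same place. Nearest genes are named by position and need not be the annotated transcript. Counting peaks of any class, 9886 genes (45.1%) were nearest to a siMyolinc peak, against 10795 (49.3%), 5867 (26.8%) and 4884 (22.3%) in control replicates 1 to 3. All 3 controls named 2960 genes (13.5%), of which siMyolinc named 2313 (78.1%). Genes with a peak in an intron numbered 2271 in siMyolinc at equal length, against 1686, 1617 and 1630 in the controls (p = 0.25, exact permutation test).

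A few genes carried several exon peaks, counted as peaks whose nearest gene they are. Arhgef16, a guanine nucleotide exchange factor gene, had 0 in siMyolinc, against 9, 5 and 2 in control replicates 1 to 3. Cacna1i, a T-type calcium channel gene, had 4 in siMyolinc, against 7, 5 and 5, and Ier2, an immediate early gene, 3 in siMyolinc, against 3, 4 and 4. The siMyolinc counts of Arhgef16 and Cacna1i lay below every control, while that of Ier2 fell within the control range. Among intron peaks the order turned for some long genes. Dlgap2, a synaptic scaffold gene, had 13 in siMyolinc, against 2, 0 and 0, and Wwox, an oxidoreductase gene, had 14 in siMyolinc, against 9, 6 and 1. These genes were picked as those with the most peaks in a list, so their counts describe and test nothing.

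Muscle genes were examined by list. Of 66 genes of muscle structure and contraction, 37 (56.1%) were nearest to a siMyolinc peak, against 44, 21 and 19 in control replicates 1 to 3. The same shares over all protein-coding genes were 45.1% in siMyolinc and 49.3%, 26.8% and 22.3% in the controls, so the list stood 5.02 to 17.4 percentage points above its background in each library. At equal length 17 of the 66 had a peak in siMyolinc, against 22, 16 and 19 in the controls, inside the control range. Over all protein-coding genes the equal-length shares were 22.5% in siMyolinc and 22.2%, 22.2% and 22.3% in the controls. Of the 66, 10 had a peak in all 3 controls, and siMyolinc named 9 of these, among them Acta1, Dysf, Mb, Myh8, Nebl, Sgcd, Tcap and Xirp2. Over all protein-coding genes it named 78.1% of those in all 3 controls. Myh4, a fast myosin heavy chain, was missing, named for 0 peaks in siMyolinc and for 2, 1 and 1 exon peaks in the controls. These exons need not be its own. The site shared by the 3 controls lay in exon 35 of Myh1, -16910 bp from the Myh4 start. In exons the list had 9 members in siMyolinc, against 19, 8 and 8 in the controls, and all protein-coding genes had an exon peak at 6.63% in siMyolinc and 17.1%, 8.87% and 7.49% in the controls. At promoters it had 2 members in siMyolinc (Mylpf and Synpo2l), against 2 (Pygm and Sgcd), 3 (Sgcd, Synpo2l and Tnni2) and 3 (Ckm, Dysf and Sgcd) in control replicates 1 to 3. Over all protein-coding genes 2.49% had a promoter peak in siMyolinc, against 5.09%, 2.12% and 1.65% in the controls.

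The other muscle lists were counted alike. On whole lists the shares over all protein-coding genes were 45.1% in siMyolinc and 49.3%, 26.8% and 22.3% in control replicates 1 to 3. Of 41 myogenic regulators, 30 (73.2%) were named in siMyolinc, against 27 (65.85%), 20 (48.8%) and 19 (46.3%) in the controls. All 10 that the 3 controls shared were named in siMyolinc, where 78.1% of all shared genes were. At equal length the counts were 12 of 41 in siMyolinc, against 15, 17 and 19 in the controls, where all genes stood at 22.5% in siMyolinc and 22.2 to 22.3% in the controls. Of 26 genes of excitation-contraction coupling, 16 (61.5%) were named in siMyolinc, against 17 (65.4%), 10 (38.5%) and 7 (26.9%) in the controls. The 4 in all controls (Cacng1, Jph2, Ryr1 and Sln) were named in siMyolinc as well, where 78.1% of all shared genes were. Over these 3 lists, 133 genes in all, the controls shared 12 exact sites nearest to 9 genes, and 0 of the 12 had a siMyolinc peak. With 12 sites that count allows a share of up to 25% (3 sites of 12), and the share over all shared sites was 10.2%.

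Those 12 sites include several in coding exons of contractile genes. Exons 27 and 30 of Myh8, the perinatal myosin heavy chain on chromosome 11, held 11, 9 and 10 tags and 14, 8 and 7 tags in control replicates 1 to 3. Exon 35 of Myh1, a fast myosin, held 9, 8 and 6 tags, with Myh4 named as nearest gene. Exon 2 of Mymx, which encodes the fusion peptide myomixer, held 12, 4 and 9 tags. The Sgcd promoter printed above held 11, 8 and 5 tags. An exon of Ptk7 near Srf, which encodes serum response factor, held 13, 10 and 6 tags. The siMyolinc library listed no peak at any of the sites just named. Myosin heavy chain exons are similar between family members, so tags may be shared among them.

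The named regulators had few peaks. Myod1, the founding myogenic factor, had 0 peaks in siMyolinc, against a promoter peak of 8 tags in control replicate 1 (-115 bp from the start, chromosome 7, 46376235 to 46376483), one of 6 tags in replicate 2 (-101 bp) and none in replicate 3. Myog had 1 intronic peak of Ppfia4 with 5 tags in siMyolinc, against 3 peaks in replicate 1, 1 in replicate 2 and 0 in replicate 3, with the promoter peak of 8 tags in replicate 1. Ckm had 0 peaks in siMyolinc, against a promoter peak and an exon peak of 6 tags each in replicate 3 and none in the other two. Cdkn1a, a cell cycle inhibitor, had 0 peaks in siMyolinc, against an upstream peak of 8 tags in replicates 2 and 3 and none in replicate 1. Acta1, skeletal actin, had 3 peaks in siMyolinc, against 3, 1 and 1, and Ttn, the giant sarcomere protein titin, had 2 in siMyolinc, against 2, 1 and 0. Filip1, the gene beside Myolinc, had 2 intronic peaks of 7 tags each in siMyolinc and none in any control. At the depth of control replicates 1 to 3, 7 tags scale to 3.001, 2.34 and 2.07. Those values lie below the lowest listed peaks of 4, 4 and 3 tags. A site with 7 siMyolinc tags can still be listed in every control, as the L1td1 promoter was. The part of depth in the Filip1 difference was not tested. Tardbp itself had 0 peaks in all 4 lists. The promoter peaks of Myod1, Myog and Ckm were each missing from at least 1 control too, so their absence from siMyolinc is not larger than the spread between control replicates.

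**Figure D5:**
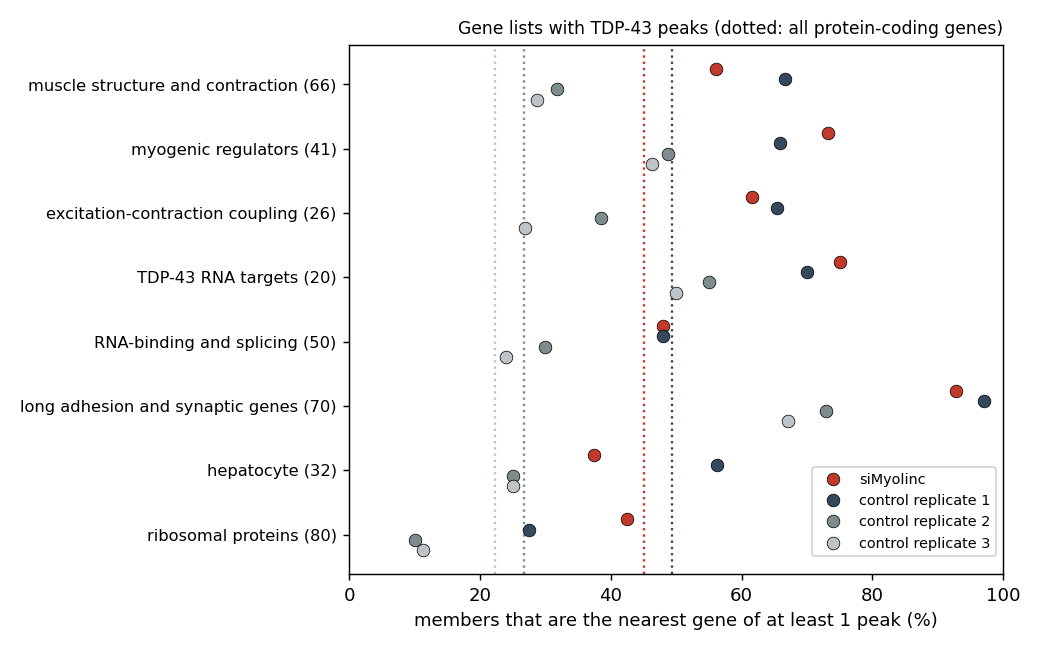
Share (%) of each gene list (members in brackets) that is the nearest gene of at least 1 TDP-43 peak in the siMyolinc library (red) and in control replicates 1 to 3 (greys), with dotted lines for all protein-coding genes in the same library (45.1%, 49.3%, 26.8% and 22.3%). The long adhesion and synaptic genes stand farthest right in every library, and ribosomal protein genes farthest left in the 3 controls.

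Genes known for TDP-43 binding in their RNA were counted too. Over all protein-coding genes the whole-list shares were 45.1% in siMyolinc and 49.3%, 26.8% and 22.3% in control replicates 1 to 3. Of 20 RNA targets described in the nervous system, 15 (75%) were named in siMyolinc, against 14, 11 and 10 in the controls, and all 7 shared by the controls, among them Csmd1, Efna5, Gria3, Kcnd2, Nlgn1 and Nrxn3, were named in siMyolinc, against 78.1% of all shared genes. At equal length the order turned, with 6 of the 20 named in siMyolinc, against 8, 9 and 10 in the controls. All protein-coding genes then stood at 22.5% in siMyolinc and 22.2 to 22.3% in the controls. The RNA targets are long genes, with a median length of 90.1 kb, against 17.1 kb over all protein-coding genes. A list of 70 long adhesion and synaptic genes (median 925.2 kb) was named still more often. It had 65 (92.9%) in siMyolinc and 68 (97.1%), 51 (72.9%) and 47 (67.1%) in the controls. Nrxn3, a synaptic adhesion gene, had 5 intron peaks and no exon peak in siMyolinc, against an exon peak in each of the 3 controls. Of 32 hepatocyte genes, which muscle does not use, 12 (37.5%) were named in siMyolinc, against 18 (56.25%), 8 (25%) and 8 (25%). That list lay below all genes in siMyolinc and control replicate 2, and above them in replicates 1 and 3. Of 50 RNA-binding and splicing genes, 24 (48%) were named in siMyolinc, against 24 (48%), 15 (30%) and 12 (24%). All 9 shared by the controls were named in siMyolinc, where 78.1% of all shared genes were. Of 80 ribosomal protein genes, 34 (42.5%) were named in siMyolinc, against 22, 8 and 9, and 7 of them at a promoter, against 0, 1 and 2 in the controls, where all genes stood at 2.49% in siMyolinc and 5.09%, 2.12% and 1.65% in the controls. The siMyolinc share of 42.5% stood near the 45.1% of all genes, and the control shares of 27.5%, 10% and 11.2% stood below theirs. At equal length 13 of the 80 were named in siMyolinc, against 7, 6 and 9 in the controls. A promoter peak was then listed for 3 of them in siMyolinc, against 0, 0 and 2. Over all protein-coding genes it was listed for 192 in siMyolinc, against 324, 360 and 362.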

How the data were processed

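TDP-43 was measured by ChIP-seq in 4 libraries of C2C12 cells (mouse) on day 2 of differentiation, 1 after Myolinc siRNA and 3 controls. Per the labels' protocols, formaldehyde-fixed chromatin was sonicated, precipitated, PCR-amplified and sequenced on an Ion PGM. Per the file headers and the submitters' processing notes, the authors called peaks for every library separately over IgG and annotated them on mm10 using HOMER. No version, aligner, calling setting or choice among IgG libraries is given in the sources used. No header says how the deposited score per peak was scaled. Dividing it by its step (whole multiples within 0.05 for 100% of scores in each list, the 1% highest left out) gave tags. On simulated scores the step was recovered with a largest error of 0.0149%.

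Mitochondrial peaks were dropped. Overlap needed 1 bp. Ties at equal length were broken by a fixed order of positions. The annotation class and repeat are the authors', and the annotated transcript was looked up in the RefSeq gene table (GRCm38). Of 16835 gene identifiers, 16796 matched. A peak was given to its nearest gene. Shares carry 95% Wilson intervals, which reflect counting error alone, because PCR duplicates are not separate molecules. Libraries were compared by a two-sided exact permutation test over the samples, and no p-value was adjusted, since none can pass 0.05. Members, gene lists and named genes were chosen with earlier results of these data known. Named sites were the best by mean score rank in each class among sites in all 3 controls, with and without a siMyolinc peak, the siMyolinc peaks with the most tags that no control list met, the genes with the most peaks in a list, and 8 fixed genes. The 12 muscle sites and the choice of printed promoters were added after values were seen. Some genes that these rules pick are not reported here. Peak sequences were not analysed here, as no genome of this build was at hand, and RefSeq promoter windows were used in their place. Python 3.11.15, pandas 2.3.3, NumPy 2.4.6, SciPy 1.17.1 and matplotlib 3.10.9 were used. Alternatives were equal length, the best 1000 peaks, peaks at or above the median score, no repeats, each control left out, 50% overlap, 500 bp extension and promoters of 1000 or 5000 bp.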

Additional observations from a re-analysis of the deposited data

Results flagged for a closer look

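On whole lists, the shares of exons, promoters and simple repeats moved in opposite ways under the same knockdown for TDP-43 and for the 2 myogenic factors. The siMyolinc exon share was 15.9 percentage points below the control mean for TDP-43, while it was 1.83 points above control for MyoD (3.68% in siMyolinc, 1.85% in control) and 4.41 points above control for Myogenin (6.25% in siMyolinc, 1.84% in control). For promoters the TDP-43 share was lower by 2.31 points, while MyoD was 1.26 points above control (2.69% in siMyolinc, 1.43% in control) and Myogenin 1.66 points above control (3.10% in siMyolinc, 1.44% in control). For simple repeats the TDP-43 share was lower by 7.80 points, while MyoD was 0.470 points above control and Myogenin 0.481 points above control. For MyoD this turned at equal list length, where simple repeats held 0.319% in siMyolinc and 0.588% in control, the same direction as TDP-43, while Myogenin had 0.662% in siMyolinc and 0.551% in control. The siMyolinc TDP-43 library lay below each of the 3 TDP-43 controls in all of these, but MyoD and Myogenin had 1 library per condition, so the difference between antibodies was not tested.

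Outside the nuclear genome, the siMyolinc TDP-43 list held 4 peaks on the mitochondrial genome, against 0 in each of the 3 control lists. The strongest held 433 tags, above the 50 tags of the strongest nuclear peak in the same library. Mitochondrial peaks were left out of every share.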

How the results depend on the processing

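Differences are siMyolinc minus the control mean. Of 212 repeats of results with a test, 202 had the same sign, and no p can pass 0.05 in this design. LINE elements turned to -0.29 points at equal length and -0.73 points with the best 1000 peaks, and the first intron to 2.92 points with the best 1000. The number of genes with a promoter peak turned to 11.3 from the median score upward, 133 without control replicate 1 and 169 with promoters of 5000 bp. Genes with a transcript end or UTR peak turned to -128 at equal length, -13 with the best 1000, -71.5 without replicate 2 and -124 without replicate 3. The causes were not tested. Leaving out 1 control at a time, the exon share difference was -17.9 to -14.5 points the promoter gene difference -243 to 133 and the transcript end or UTR gene difference -124 to 260.5. The range over left-out controls was 6.48 to 7.22% for all control peaks found in siMyolinc, 9.36 to 10.3% for exon peaks and 4.985 to 5.55% for intergenic peaks.

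Control peaks found in the siMyolinc list numbered 6.77% on average. They numbered 3.98% at equal length, 1.47% with the best 1000, 7.78% without repeats, 5.33% with 50% overlap and 11.4% with peaks extended by 500 bp. For exon peaks the 9.67% became 5.32% at equal length, 2.01% with the best 1000, 8.25% from the median score upward, 7.22% with 50% overlap and 16.9% when extended. For intergenic peaks the 5.26% became 2.86%, 1.296%, 6.64% without repeats, 4.22% and 7.65% under the same settings. Shared control sites with a siMyolinc peak were 10.2%, and 6.49% at equal length, 0 with the best 1000, 8.57% with 50% overlap and 17.0% when extended. Among exon sites the 9.77% became 5.71%, 0 and 20.4% at equal length, with the best 1000 and when extended. Muscle structure genes at promoters differed by -0.667, and by -2 at equal length, 0 with the best 1000, -1.33 with 1000 bp promoters and 0.333 with 5000 bp promoters.

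No paired analysis was possible because the siMyolinc group has 1 library without a replicate number. The sequence content of peaks was not run, since it needs a genome. The single siMyolinc library and the depth limit the comparison, since a listed control peak can rest on 3 or 4 tags and a list says nothing of tags outside peaks.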
